A study of Mus musculus with 6 samples.

Results

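Leukocyte integrins were examined in mice lacking Mbd2, in regulatory T cells (Treg, CD4+CD25+), which are helper T cells that restrain immune responses. The genes considered were Itgae, Itgb7, Itga4, Itgb1, Itgav, Itga6, Itgal, Itgb2, Itgam and Itgb8, taken by name from the array annotation. Of these 10 genes, 9 were measured, by 19 probe sets among the 22626 that were not controls (12393 named genes in all). Itgb8 had no probe set with a single gene symbol and is not analysed here. RNA was compared between 3 arrays from MBD2–/– mice and 3 from WT mice, all on the Balb/c background and all of cells separated magnetically by CD4 and CD25. The series' design text calls the knockout samples independent, without saying which mice gave them, so p-values measure the spread between these samples. No age, sex or treatment is given. Values are log2 expression levels from RMA, in which probe brightness is background-corrected and quantile-normalized and then combined into 1 value a probe set. A difference of 1 on this scale is a 2-fold change.

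Integrins are adhesion receptors made of an alpha and a beta chain. The chain pairs decide what a leukocyte can hold on to. The Itgae product, CD103, pairs with that of Itgb7 and binds E-cadherin on epithelium. The Itga4 product pairs with that of Itgb7, for entry into gut, or with that of Itgb1, for binding to the vascular ligand VCAM. The Itgal and Itgb2 products form the main integrin of T cells for ICAM ligands, whereas Itgam with Itgb2 forms the receptor typical of neutrophils, monocytes and macrophages. The products of Itgav and Itgb8 together release active TGF-beta from its latent form, and the Itga6 product with that of Itgb1 binds laminin.

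Promoter sequences are shown for members of both kinds, because Mbd2 is a protein that binds methylated CG dinucleotides. They are the 250 bases before an annotated transcript start (RefSeq, GRCm38.p6), 5′ to 3′ on the gene's strand, with every CG in capitals. The first 3 belong to T cell integrins and the last to the myeloid Itgam.
Itgb7, chr15:102231936-102232185, minus strand: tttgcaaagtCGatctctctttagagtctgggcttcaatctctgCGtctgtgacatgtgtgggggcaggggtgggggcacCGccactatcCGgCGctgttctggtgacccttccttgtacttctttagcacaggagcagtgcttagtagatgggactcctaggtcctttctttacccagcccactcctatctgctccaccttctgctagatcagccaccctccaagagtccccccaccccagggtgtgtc
Itga4, chr2:79255176-79255425, plus strand: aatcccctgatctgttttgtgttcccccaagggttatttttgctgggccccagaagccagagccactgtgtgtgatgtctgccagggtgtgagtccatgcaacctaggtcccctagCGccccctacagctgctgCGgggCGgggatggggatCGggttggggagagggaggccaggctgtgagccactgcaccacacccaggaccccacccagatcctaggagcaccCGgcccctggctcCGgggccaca
Itgb1, chr8:128685404-128685653, plus strand: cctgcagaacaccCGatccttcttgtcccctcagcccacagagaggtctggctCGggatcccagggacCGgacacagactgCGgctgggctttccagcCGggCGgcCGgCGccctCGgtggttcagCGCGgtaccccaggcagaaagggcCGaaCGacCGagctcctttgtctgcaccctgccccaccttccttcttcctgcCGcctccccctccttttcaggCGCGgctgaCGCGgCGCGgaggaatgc
Itgam, chr7:128062390-128062639, plus strand: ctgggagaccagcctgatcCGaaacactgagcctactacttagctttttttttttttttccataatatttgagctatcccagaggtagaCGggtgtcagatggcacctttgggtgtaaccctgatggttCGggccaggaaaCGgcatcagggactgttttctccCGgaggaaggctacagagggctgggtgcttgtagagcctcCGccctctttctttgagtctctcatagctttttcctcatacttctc

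The Itgb1 window held 21 CG dinucleotides, a count reached by 16.3% of the 32851 promoters of this length. Those of Itgb7, Itga4 and Itgam held 5, 6 and 6, against a median of 6 over all promoters, and 92.1% of promoters had at least 1. The letters GAGGAA or, on the other strand, TTCCTC, a core bound by the myeloid factor PU.1, occurred 2 times in the Itgam window, 1 time in that of Itgb1 and in neither of the other windows printed. The window of Itgav, which is not printed, held 2 such matches, as many as that of Itgam, and 18 CG dinucleotides. The letters occurred in 23.3% of all promoters. TGTGGT or its complement ACCACA, a core bound by RUNX factors, occurred 1 time in the Itga4 window and in none of the other windows printed, against 14.0% of all promoters. The starts used for Itgb7 and Itgav lie inside the annotated gene spans. DNA methylation was not analysed here, so these counts describe sequence only.

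One array has to be kept in view throughout. WT replicate 3 correlated with the other 5 arrays at 0.749 to 0.767 across probe sets, while the remaining pairs of arrays correlated at 0.956 to 0.997. Levels spread less across probe sets on it, with an SD of 1.36, against 1.78 to 1.83 on the other arrays. Each integrin is therefore given with all 6 arrays and without that array. The targeted transcript was measured first as a check of the labels. The brighter Mbd2 probe set gave 5.93, 5.71 and 6.14 in knockout replicates 1 to 3, against 8.80, 8.66 and 6.93 in WT replicates 1 to 3, so the groups did not overlap. No source used here says whether the probes fall within the deletion.

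Itgae was the one integrin called in either limma fit with equal array weights. Its level was 7.17, 7.15 and 7.09 in knockout replicates 1 to 3, against 7.83, 7.92 and 5.89 in WT replicates 1 to 3. The knockout arrays lay close together, below WT replicates 1 and 2 and above WT replicate 3. With 6 arrays the log2 difference was -0.07 (SE 0.56, 95% interval -1.41 to 1.26, limma adjusted p = 0.968). With all 6 arrays and array quality weights, which gave WT replicate 3 the lowest weight, it was -0.75 (limma adjusted p = 0.00128). The weights of WT replicates 1 to 3 were 0.45, 4.39 and 0.03, so the WT side rested mostly on replicate 2. With these weights 2323 of the 13575 tested probe sets had an adjusted p under 0.05. Without WT replicate 3, Itgae fell 1.67-fold, with a log2 difference of -0.74 (SE 0.09, 95% interval -0.96 to -0.51, limma adjusted p = 0.0321). In that fit 0.729% of 13575 tested probe sets were called lower and 0.67% higher, while with 6 arrays 0% were called lower and 0.103% higher. The size of the Itgae difference changed little when a further array was left out, from -0.69 to -0.78, but the call was lost without knockout replicate 1 (adjusted p = 0.125), knockout replicate 3 (0.113), WT replicate 1 (0.344) or WT replicate 2 (0.358). The adjusted p was 0.00251 when knockout replicate 2 was the further array left out.

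Itgb7, which encodes the beta chain partner of the Itgae product, had levels of 9.76, 9.53 and 9.68 in the knockout arrays, against 10.25, 10.22 and 9.44 in the WT arrays. Again the knockout arrays lay below WT replicates 1 and 2 and above WT replicate 3. The log2 difference was -0.32 (SE 0.28) with 6 arrays and -0.58 (SE 0.11, 95% interval -0.84 to -0.32, limma adjusted p = 0.0616) without WT replicate 3. The 95% intervals of Itgae and Itgb7 overlapped in that setting, and the difference between them was not tested.

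**Figure D1:**
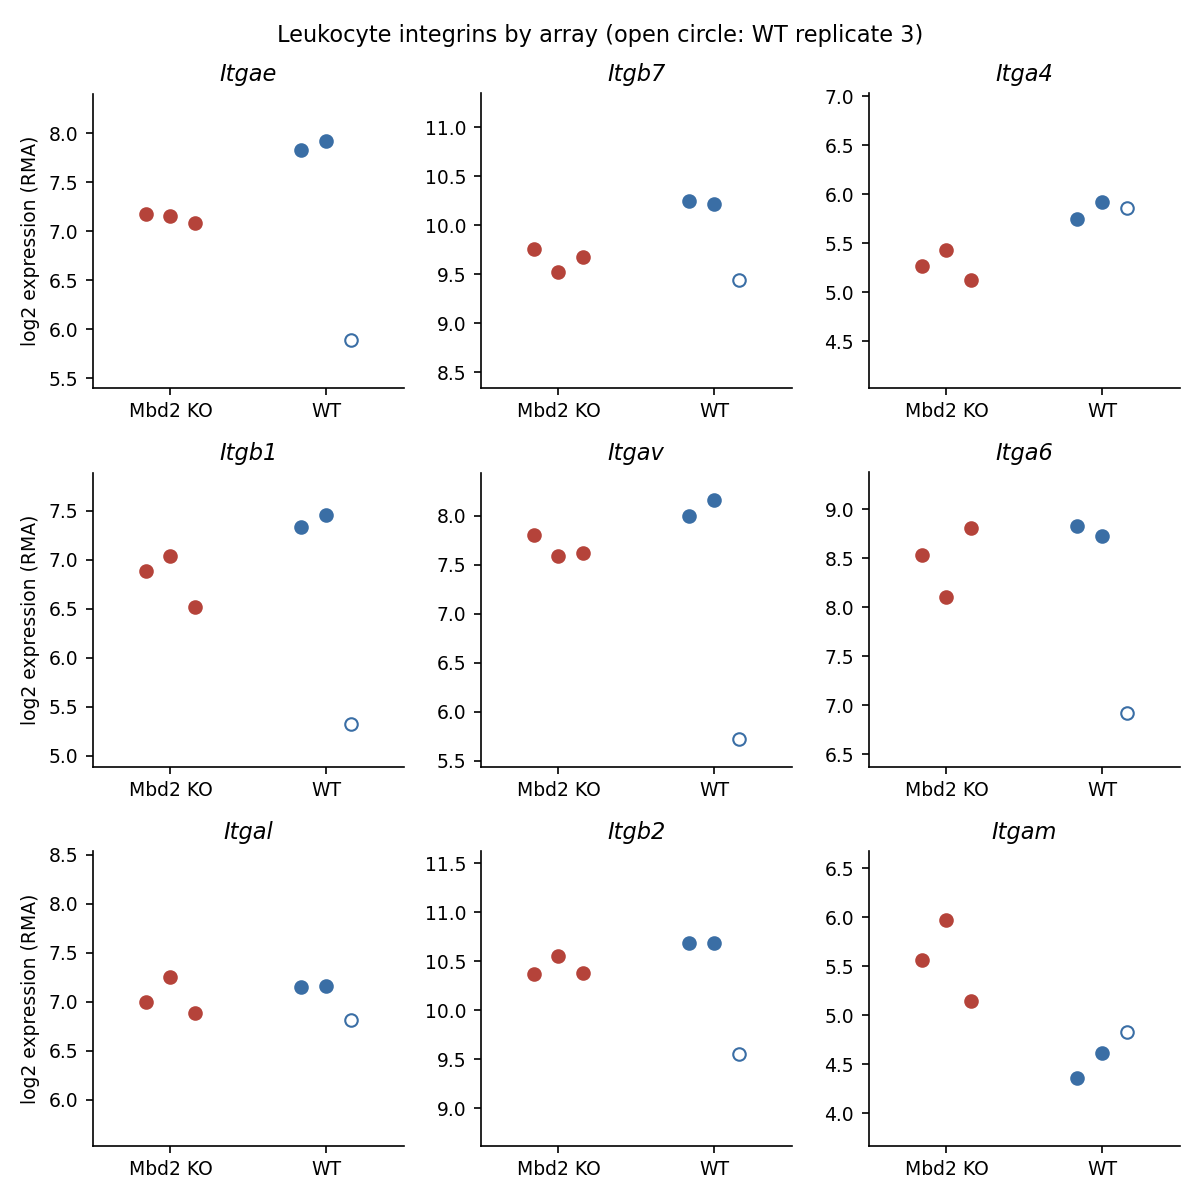
Log2 expression (RMA, y axis, 3 log2 units in every panel) of 9 integrin genes on each array, Mbd2 knockout at left and WT at right, each gene by its brightest probe set and the open circle marking WT replicate 3. Itga4 and Itgam are the genes whose groups do not overlap with all arrays; for Itgae, the knockout arrays lie from 7.09 to 7.17, below WT replicates 1 and 2 and above WT replicate 3 at 5.89.

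Itga4 was the only T cell integrin whose brightest probe set separated the groups with all 6 arrays. It measured 5.26, 5.43 and 5.13 in the knockout arrays, against 5.74, 5.92 and 5.86 in the WT arrays, and WT replicate 3 lay between the other WT arrays. The log2 difference was -0.57 (SE 0.20, unadjusted p = 0.029, limma adjusted p = 0.829) with 6 arrays and -0.56 (SE 0.13, adjusted p = 0.0907) without WT replicate 3. With 6 arrays, groups separated with knockout lower for 5.72% of tested probe sets and with knockout higher for 10.4%. An unadjusted p under 0.05 was reached by 1 of the 8 integrins tested, Itga4, against 0.597% of all tested probe sets lower and 3.48% higher. Of the other Itga4 probe sets, both under the filter on dim signals, one gave -0.30 without WT replicate 3 and the dimmest -0.09. With 6 arrays they gave -0.20 and -0.05, and the groups overlapped for both. The brightest Itga4 probe set was itself dim, with knockout replicate 3 under the filter level of 5.18.

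Itgb1, which encodes the shared beta chain of the VCAM, laminin and fibronectin receptors, was measured by 6 probe sets, 4 of which lay under the filter. The brightest gave 6.89, 7.04 and 6.52 in the knockout arrays, against 7.33, 7.46 and 5.32 in the WT arrays. Only WT replicate 3 lay below the knockout range. The log2 difference was 0.11 (SE 0.59) with 6 arrays and -0.58 (SE 0.17, 95% interval -0.99 to -0.17, limma adjusted p = 0.139) without WT replicate 3. The next probe set gave the same difference of -0.58 in the 5-array fit, while the 4 dim ones ran from -0.38 to 0.04. With 6 arrays, dim probe sets at -0.31 and -0.08 separated the groups with knockout lower, as did 6.2% of probe sets without the filter. For the next probe set, at 0.04, and the other dim ones, at -0.015 and 0.04, the groups overlapped.

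Itgav, the alpha chain of the integrins that activate TGF-beta, had 7.80, 7.59 and 7.62 in the knockout arrays, against 8.0005, 8.16 and 5.73 in the WT arrays. Its difference changed sign with WT replicate 3, and was 0.38 (SE 0.65) with 6 arrays and -0.41 (SE 0.11, limma adjusted p = 0.13) without it. A second, dimmer Itgav probe set had its highest value, 5.999, on WT replicate 3, opposite to the brightest one. Itga6 measured 8.53, 8.10 and 8.81 in the knockout arrays, against 8.83, 8.73 and 6.92 in the WT arrays by its brightest probe set, for which the groups overlapped in either setting. Its difference was 0.32 (SE 0.55) with 6 arrays and -0.30 (SE 0.21, 95% interval -0.81 to 0.22) without WT replicate 3. A second Itga6 probe set measured 8.13, 7.24 and 8.22 in the knockout arrays, against 8.31, 8.27 and 6.56 in the WT arrays. It separated the groups without WT replicate 3, at -0.43 (SE 0.30, limma adjusted p = 0.441).

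For the chains of the main T cell integrin for ICAM ligands no difference passed the threshold. Itgal measured 6.997, 7.25 and 6.89 in the knockout arrays, against 7.15, 7.16 and 6.81 in the WT arrays. These groups overlapped with and without WT replicate 3, and the difference without it was -0.11 (95% interval -0.43 to 0.21, limma adjusted p = 0.654). Itgb2, the beta chain common to Itgal and Itgam, measured 10.37, 10.55 and 10.38 in the knockout arrays, against 10.68, 10.68 and 9.56 in the WT arrays. Its difference was 0.13 (SE 0.35) with 6 arrays and -0.25 (SE 0.10, limma adjusted p = 0.228) without WT replicate 3.

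Itgam, the myeloid alpha chain, went the other way. Its level was 5.56, 5.98 and 5.15 in the knockout arrays, against 4.37, 4.61 and 4.83 in the WT arrays. The groups did not overlap with or without WT replicate 3, and here WT replicate 3 was the highest WT array. The mean over the 6 arrays, 5.08, lay under the filter at 5.18, so Itgam was fitted without the filter. The log2 difference was 0.96 (SE 0.26, 95% interval 0.33 to 1.60, unadjusted p = 0.0104, limma adjusted p = 0.817) with 6 arrays and 1.07 (SE 0.24, 95% interval 0.47 to 1.68, limma adjusted p = 0.113) without WT replicate 3. Without the filter, 0.0354% of 22626 probe sets were called higher with 6 arrays and 0.398% without WT replicate 3, while groups separated with knockout higher for 7.21% with 6 arrays and 15.9% without WT replicate 3, and with knockout lower for 6.2% and 23.3%. The difference stayed between 0.76 and 1.17 when any 1 of the 6 arrays was left out. All WT values and that of knockout replicate 3 lay under the filter level, and the files came without detection calls.

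**Figure D2:**
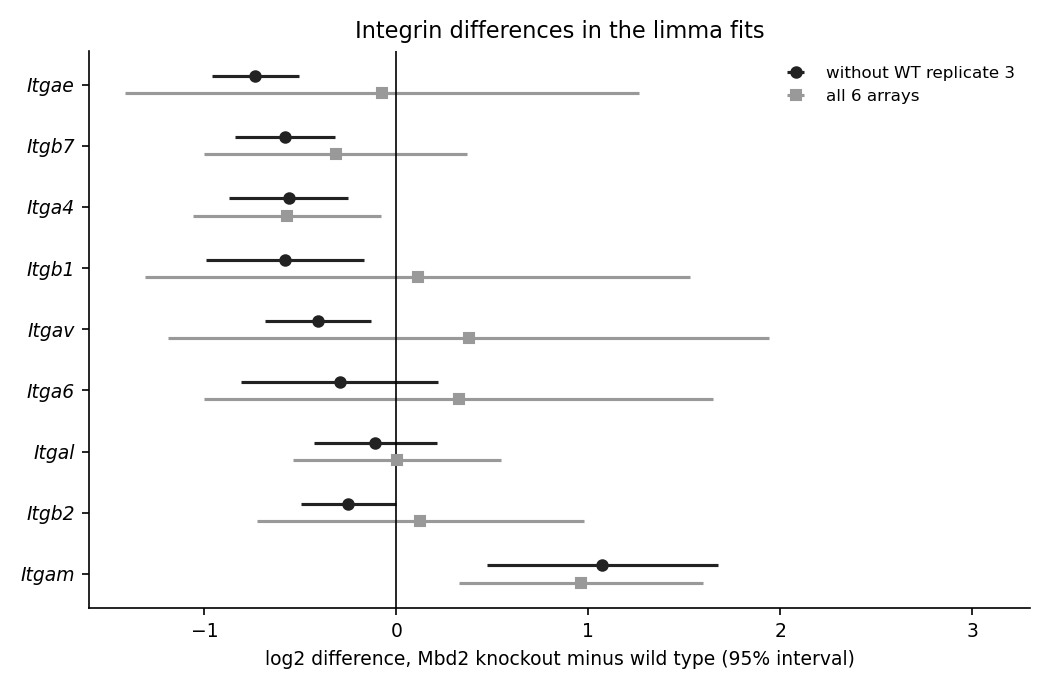
Log2 difference, Mbd2 knockout minus wild type (x axis), with 95% intervals from limma for 9 integrin genes, black circles for the fit without WT replicate 3 and grey squares for all 6 arrays. Without that array 8 genes lie below 0 and Itgam above it at 1.07; with all arrays the intervals are wider and 5 of the 8 lie above 0.

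Across the 8 members that passed the filter, 3 were lower and 5 higher with 6 arrays, with a median log2 difference of 0.06 against 0.15 over all tested probe sets, of which 36.8% were lower. Without WT replicate 3, 8 were lower and 0 higher, with a median of -0.48 against -0.06, while 60.7% of all tested probe sets were lower. Groups did not overlap, with knockout lower, for 6 of the 8, against 31.8% of all tested probe sets, and 15.6% separated with knockout higher. The same 6 had an unadjusted p under 0.05, against 14.6% of all tested probe sets lower and 6.95% higher. Leaving out knockout replicate 1, knockout replicate 3, WT replicate 1 or WT replicate 2 as well left 0 integrin probe sets past the threshold. Leaving out knockout replicate 2 instead, a setting placed here after the values were seen, gave adjusted p under the threshold for 6 of the 8, all lower: Itgae, Itgb7, Itga4, Itgb1, Itgb2 and Itgav. In that fit 10.3% of tested probe sets were called lower and 8.37% higher. Itgam, fitted without the filter, was then called higher at 0.87 (limma adjusted p = 0.0129), where 5.28% of 22626 probe sets were called higher and 6.15% lower.

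Itgae was contrasted with Itgam within each array, since a shift of a whole array cancels in the difference. A narrower spread of levels, as on WT replicate 3 (SD 1.36, against 1.78 to 1.83), does not cancel. The distance between probe sets has no meaning by itself, and only its change between groups is read. Itgae minus Itgam was 1.61, 1.18 and 1.94 in knockout replicates 1 to 3, against 3.46, 3.31 and 1.06 in WT replicates 1 to 3. WT replicate 3 lay below all knockout arrays. The contrast was lower in knockout by a log2 difference of -1.04 with 6 arrays (two-sided exact permutation test, p = 0.4) and of -1.81 without WT replicate 3 (exact permutation p = 0.1). In both designs 0.1 is the smallest p the test can give. For Itgb7, Itga4 and Itgal minus Itgam, every knockout array lay below every WT array, WT replicate 3 included, with differences of -1.28, -1.53 and -0.96. The same contrast gave -0.85 for Itgb1, -0.84 for Itgb2, -0.64 for Itga6 and -0.58 for Itgav with 6 arrays, with groups that overlapped. All 8 contrasts share the Itgam probe set, so they are not separate results. With 6 arrays Itgam by itself separated the groups at 0.96, while Itgal by itself was at 0.0046 with groups that overlapped. The share of all probe sets that separate relative to Itgam was not computed.

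The T cell integrins were also set against general T cell markers, a description added after the values were seen. The list of 9 measured markers, led by Cd3d, Cd3g and Cd3e of the T cell receptor complex, had a mean level of 9.99, 9.27 and 9.96 in knockout replicates 1 to 3, against 10.32, 10.29 and 9.17 in WT replicates 1 to 3. Knockout replicate 2 and WT replicate 3 were the low arrays. Without WT replicate 3, all 9 markers were lower in knockout and 0 passed the threshold, with a median of -0.53. With 6 arrays 8 were lower, with a median of -0.24 and 0 past the threshold. In bulk RNA, fewer cells of a type and less RNA per cell cannot be told apart. Relative to the marker mean on the same array, Itgae was at -2.81, -2.12 and -2.87 in the knockout arrays, against -2.50, -2.37 and -3.28 in the WT arrays, and the groups overlapped with and without WT replicate 3. The change between groups was 0.11 with 6 arrays and -0.17 without WT replicate 3. For Itgb7, Itga4 and Itgb1 it was -0.13, -0.38 and 0.30 with 6 arrays and -0.01, 0.01 and -0.01 without WT replicate 3. For Itgal, Itgb2, Itgav and Itga6 it was above 0 in both settings, at 0.19, 0.32, 0.57 and 0.51 with 6 arrays and at 0.46, 0.32, 0.16 and 0.27 without WT replicate 3. Relative to the markers, Itga6 was higher in knockout without overlap in both settings, and Itgal without WT replicate 3. By level, the groups of the brightest Itga6 probe set and of Itgal overlapped in both settings. The marker mean subtracted was itself lower on the knockout arrays than on WT replicates 1 and 2. The share of all probe sets that separate relative to the markers was not computed. Itgam remained higher by 1.64 without WT replicate 3, without overlap, and by 1.15 with 6 arrays, where WT replicate 3 lay within the knockout range.

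**Figure D3:**
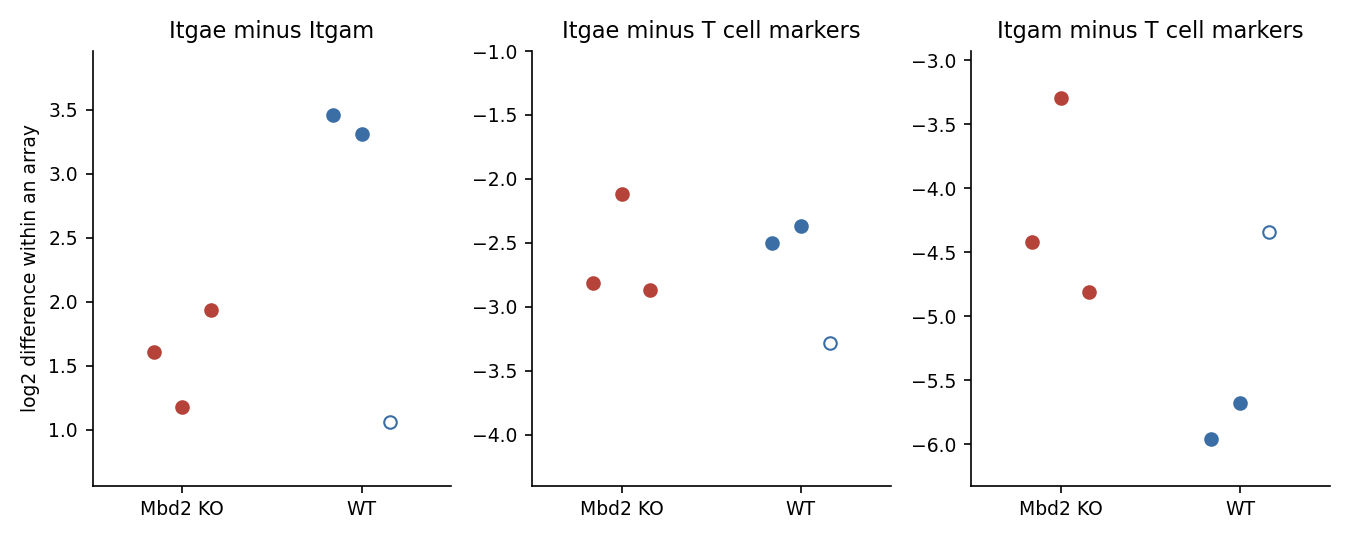
Log2 differences within an array (y axis, 3.4 log2 units in each panel) for Itgae minus Itgam, Itgae minus the mean of 9 T cell markers and Itgam minus that mean, Mbd2 knockout at left and WT at right, the open circle marking WT replicate 3. Itgae minus Itgam is 1.18 to 1.94 in knockout, against 3.46 and 3.31 in WT replicates 1 and 2 and 1.06 in WT replicate 3, while Itgae relative to T cell markers overlaps between the groups.

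The mean levels of myeloid, granulocyte, B cell, and CD8 T and NK markers were higher on every knockout array than on every WT array, as was Itgam. All 10 myeloid markers, led by Lyz2, Tyrobp and Fcer1g, were higher in knockout, with 4 called without WT replicate 3 and 1 with 6 arrays, and their mean level was 7.57 to 8.84 in knockout arrays, against 5.58 to 5.995 in WT arrays. Within the knockout group Itgam and the myeloid mean had the same order, highest in replicate 2 and lowest in replicate 3. That order was not particular to myeloid markers. The granulocyte, B cell, CD8 T and NK, and platelet and erythroid means had it too, while the dendritic, T cell and Treg means did not. The 10 granulocyte markers, led by the neutrophil genes S100a9, S100a8 and Ngp, had 7 called without WT replicate 3 and 5 with 6 arrays. They averaged 9.88 to 10.19 in knockout arrays, against 5.62 to 6.52 in WT arrays, and the 6 B cell markers 7.33 to 7.80, against 5.91 to 6.74. The Treg markers, led by Tnfrsf18, Ctla4 and Foxp3, averaged 6.94 to 8.02 in knockout arrays, against 7.34 to 8.65 in WT arrays. Without WT replicate 3, all 5 tested Treg markers were lower in knockout without overlap, with a median of -1.19 and 0 called. In that setting 31.8% of all tested probe sets separated with knockout lower. With 6 arrays all 5 were lower, with a median of -0.58 and 0 called. Dendritic markers averaged 5.44 to 5.78 in knockout arrays, against 5.03 to 5.85 in WT arrays, and those of CD8 T and NK cells 5.99 to 6.60, against 5.49 to 5.79. Platelet and erythroid markers averaged 4.67 to 4.78 in knockout arrays, against 4.59 to 5.98 in WT arrays, with the highest value on WT replicate 3. RMA values have no zero, and 2 of the 6 platelet and erythroid markers lay under the filter level on every array. The part of these cells in the integrin differences was not tested.

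**Figure D4:**
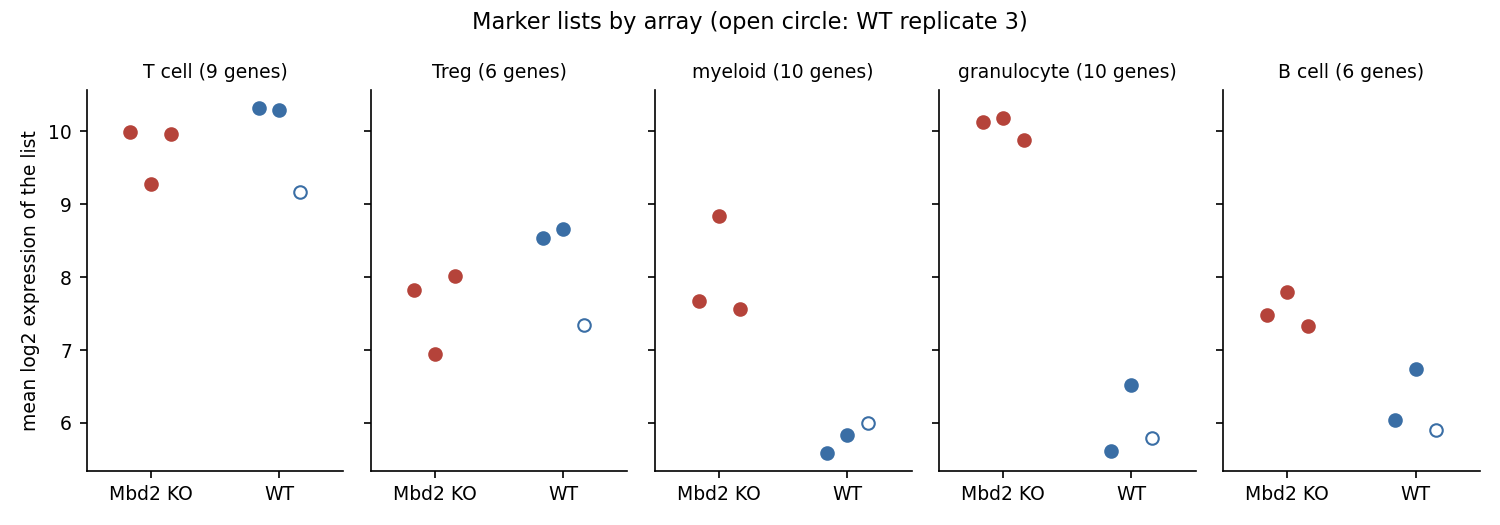
Mean log2 expression (y axis) of 5 marker lists on each array, Mbd2 knockout at left and WT at right, the open circle marking WT replicate 3. Myeloid, granulocyte and B cell lists are higher on every knockout array than on every WT array, and T cell and Treg lists are lowest on WT replicate 3 and knockout replicate 2.

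Other integrin subunits gave a mixed picture. Of 12 measured, 8 passed the filter, and without WT replicate 3 they divided into 3 lower and 5 higher with 0 called and a median of 0.16. With 6 arrays 6 were lower and 2 higher, with 0 called and a median of -0.35. Itgax, the alpha chain of dendritic cells and macrophages that also pairs with Itgb2, measured 6.17, 7.23 and 6.10 in the knockout arrays, against 5.28, 5.34 and 6.24 in the WT arrays. Its difference without WT replicate 3 was 1.19 (SE 0.35, limma adjusted p = 0.14) and 0.88 with 6 arrays, again with the highest level in knockout replicate 2. Itga7, a laminin receptor chain, was at -0.32 and Itga2b, the platelet alpha chain, at 0.31 without that array, and at -0.9999 and -0.29 with it, with neither called. WT replicate 3 was the highest array for both, at 7.26 for Itga7 and 7.86 for Itga2b.

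Among 17 measured integrin ligand genes, 7 passed the filter. Without WT replicate 3, 4 were lower and 3 higher, with a median of -0.05 and 1 called. With 6 arrays 3 were lower and 4 higher, with a median of 0.04 and 0 called. Fn1, which encodes the matrix protein fibronectin, measured 7.43, 7.98 and 7.37 in the knockout arrays, against 5.25, 5.10 and 6.36 in the WT arrays. It rose without WT replicate 3 by a log2 difference of 2.42 (SE 0.20, limma adjusted p = 0.0124) and was at 2.02 with 6 arrays (adjusted p = 0.36). Vcam1, the ligand of the Itga4 integrins, measured 7.19, 9.29 and 7.40 in the knockout arrays, against 4.66, 4.63 and 5.69 in the WT arrays, a difference of 3.32 without WT replicate 3 (SE 0.62, limma adjusted p = 0.0629) and of 2.97 with 6 arrays (adjusted p = 0.433). Vcam1 was chosen after its values were seen.

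Of 22 measured genes that regulate integrin activation from inside the cell, for or against it, 20 passed the filter. Without WT replicate 3, 17 were lower and 3 higher, with 0 called and a median of -0.13, where 60.7% of all tested probe sets were lower, with a median of -0.06. Fyb, an adaptor of integrin activation by the T cell receptor, was at -0.65 (limma adjusted p = 0.0547), Rapgef3, an exchange factor for Rap proteins, at 1.13 (0.0745) and the exchange factor Dock2 at -0.41 (0.114). With 6 arrays 6 were lower and 14 higher, with a median of 0.13, where 36.8% of all tested probe sets were lower, with a median of 0.15. Of 17 measured genes of adhesion signalling, 15 passed the filter, with 9 higher and 6 lower without WT replicate 3, 12 higher and 3 lower with 6 arrays, and 0 called. The kinase gene Syk was at 1.89 (adjusted p = 0.0607), Vcl, which encodes vinculin, at 0.86 and the myeloid kinase gene Fgr at 0.78. Of 6 tested genes of TGF-beta activation and reception, 3 were lower and 3 higher without WT replicate 3, and 0 lower and 6 higher with 6 arrays, with 0 called. The receptor genes Tgfbr1 and Tgfbr2 were at -0.77 (adjusted p = 0.0518) and -0.51 (0.0709) without WT replicate 3, and at 0.24 and 0.04 with 6 arrays. Tgfb3, under the filter, was at 0.23 without that array and -0.43 with it. Among 9 tested homing genes, 7 were lower and 2 higher without WT replicate 3, with a median of -0.68. Those called were the chemokine receptors Cxcr3, Ccr6 and Ccr9, at -1.93 (limma adjusted p = 0.00636), -1.31 (0.0124) and -1.01 (0.0255). In that fit 0.729% of all tested probe sets were called lower and 0.67% higher. With 6 arrays 5 homing genes were lower and 4 higher, and Cxcr3, Ccr6 and Ccr9 were at -1.43, -0.99 and -0.09. With 6 arrays 0 genes of these lists were called.

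**Figure D5:**
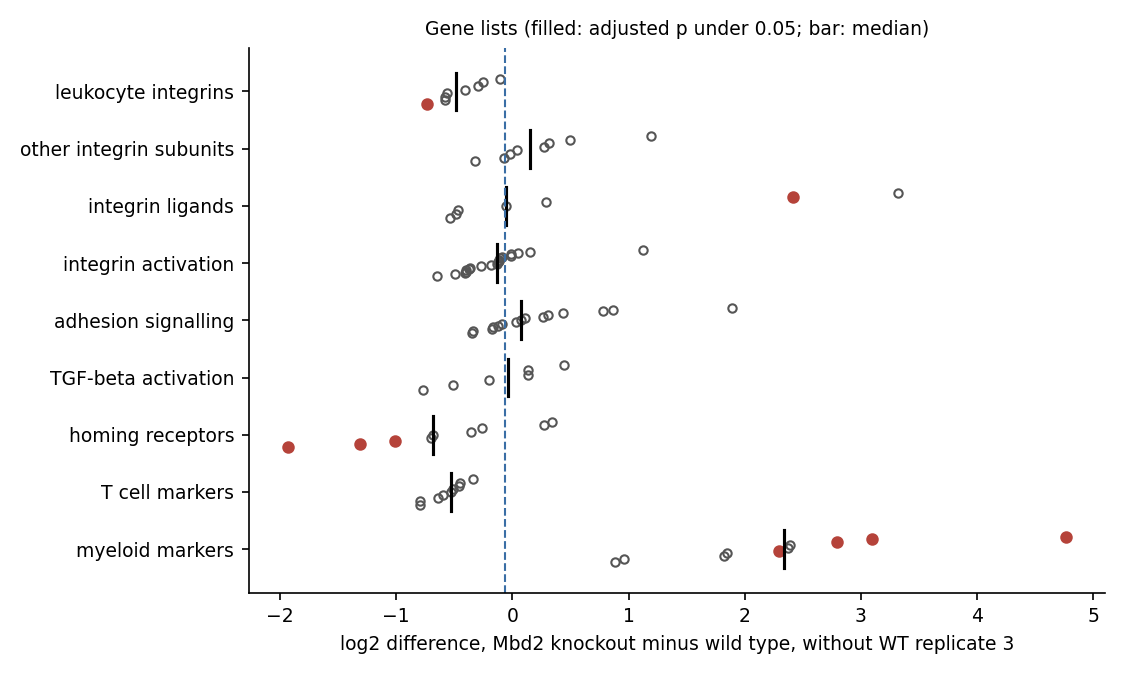
Log2 difference, Mbd2 knockout minus wild type, without WT replicate 3 (x axis) for each gene above the filter in 9 lists (rows), filled points where the limma adjusted p is under 0.05, black bars for list medians and the dashed line for the median of all tested probe sets. Leukocyte integrins and T cell markers have medians of -0.48 and -0.53, and myeloid markers 2.34.

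The genes whose levels over the 6 arrays were most like Itgae were Slc2a3, a glucose transporter gene, Abhd6 and Tnfsf14, which encodes the cytokine LIGHT, each with a Pearson correlation of at least 0.998. WT replicate 3 is the extreme array of each, and 639 of 8189 genes had a correlation over 0.95 with Itgae, so the likeness is not selective. Without that array, Slc2a3 and Tnfsf14 were also lower in knockout, at -0.82 (limma adjusted p = 0.0219) and -0.65 (0.0353), and Abhd6 was at -0.52 (0.0561). For Itgam the closest were Ifitm1, Ncf1, a subunit of the phagocyte oxidase, and Nqo2, with correlations from 0.990 to 0.996, and 63 of 8190 genes exceeded 0.95. The arrays are shared by all these values, and the correlations describe the 6 arrays only.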

How the data were processed

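RNA of magnetically separated CD4+CD25+ cells was hybridised to 6 one-colour arrays, 3 Mbd2 knockout and 3 WT. The deposited values are log2 expression levels made with RMA, per the submitters' processing notes, which name no version; scanner files were not used here. Probe sets were named from the platform annotation, with symbols updated by gene ID through RefSeq GRCm38.p6: 20380 had 1 symbol, 691 several and 1555 were not listed, and 64 controls were left out. A filter removed the dimmest 40% by mean, those under 5.18, and kept 13575. Groups were compared with limma 3.58.1 (R 4.3.3, lmFit and eBayes, group only), with Benjamini-Hochberg adjustment over all tested probe sets and a threshold of 0.05. The same limma steps were run on simulated data with equal noise on every array, so an array that stands apart was not simulated. For each gene, the probe set of highest mean stands for it; Itgam, under the filter, was fitted over all 22626. The Itgae minus Itgam contrast was tested by exact permutation over arrays.

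With 1 exception named in the text, named genes are all integrin members, Mbd2, the called genes of each list or otherwise up to 3 with the smallest p, up to 3 markers of a list with the highest mean, and the 3 genes most correlated with Itgae and with Itgam. Members and lists were chosen with earlier results of these data known. Alternatives were other filters, variance models, array weights, normalizations, probe set means, thresholds, a replicate block and leaving out each array. The precision is limited by the number of arrays.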

Additional observations from a re-analysis of the deposited data

How the results depend on the processing

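Unless another filter is named, counts are of the 13575 probe sets above the filter. Of the 19 integrin probe sets, 9 lay under it, that of Itgam among them, and were not counted. With 6 arrays, integrin probe sets past the threshold numbered 0, against 6 with array quality weights and 0 to 1 when each array was left out. All probe sets past it numbered 14, against 8 with no filter, 2323 with array weights and 0 to 190 with an array left out. Without WT replicate 3 the integrin count was 1, against 7 with array weights, 4 at an adjusted p under 0.1 and 0 to 7 with a further array left out, 7 being without knockout replicate 2. The count of all probe sets was 190, against 3783 with array weights, 779 at 0.1 and 18 to 2537 with a further array left out. The cause was not tested.

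Deviations of same-numbered arrays from their group means correlated at 0.15, -0.09 and -0.14, and those of other pairs at -0.21 to 0.21. With 3 arrays a group and WT replicate 3 standing apart, this cannot settle whether replicate numbers pair the arrays. With the replicate block and without WT replicate 3, the integrin count was 0, that of all probe sets 561, Itgae was at -0.71 (limma adjusted p = 0.0536) and Itgam at 1.28 (0.0317). A block cannot move a difference of means between 3 and 3 paired arrays, so Itgae minus Itgam is -1.04 by construction. That contrast kept its direction, between -1.81 and -0.61 with an array left out.

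With 6 arrays, array weights kept the direction of Itgae at -0.75 (limma adjusted p = 0.00128). The direction of other integrins turned. Array weights gave -0.64 for Itgb1, -0.18 for Itgal, -0.30 for Itgb2, -0.39 for Itgav and -0.13 for Itga6. Quantile normalization again gave -0.18 for Itgal and -0.25 for Itgb2, and the mean of probe sets -0.035 for Itgb1 and -0.032 for Itgav. Leaving out an array gave -0.74 to 0.28 for Itgae, -0.58 to 0.49 for Itgb1, -0.11 to 0.084 for Itgal, -0.25 to 0.31 for Itgb2, -0.41 to 0.81 for Itgav, -0.30 to 0.66 for Itga6 and -0.17 to 0.29 for Itgae relative to T cell markers. Without detection calls, levels near the filter, such as those of Itgam in WT, are limited by signal over background.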
